A study of Mus musculus with 81 samples.

Results

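Respiratory complex I (NADH:ubiquinone oxidoreductase) was examined through the nuclear genes named for its subunits. The members were the genes whose symbol is Ndufa, Ndufb, Ndufc, Ndufs or Ndufv followed by a digit, together with Ndufab1. This gave 38 genes of 21765 measured, read by 45 probe sets. Where a gene had several, which was so for 7 members, the brightest of them on average was used. The names, not the measured values, chose the members. The name includes Ndufa4, which is now counted as a subunit of cytochrome c oxidase (complex IV), and its paralog Ndufa4l2, so that averages over the complex use the other 36 genes.

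Complex I is the entry point of the mitochondrial respiratory chain. Its peripheral arm takes electrons from NADH at the flavin of the N module, hands them along iron-sulfur clusters to ubiquinone in the Q module, and the membrane arm pumps protons across the inner membrane. A conserved core carries out catalysis, many accessory subunits surround it in mammals, and the core of the membrane arm is encoded by mitochondrial DNA. In the liver the enzyme reoxidises NADH from fatty acid oxidation and the tricarboxylic acid cycle.

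RNA came from livers of overnight-fasted male mice killed at 29 weeks of age. The high-fat group ate a Harlan high-fat diet that began at 8 weeks of age (40 arrays), and the chow group ate a Harlan chow throughout life (41 arrays). The mice were BXD lines, inbred recombinants whose genomes are mosaics of C57BL/6J and DBA/2J, and those 2 parents. An array was run on pooled RNA from about 5 mice sharing strain and diet. In the diet and strain tests the error is how the diet difference varies over strains, pool noise included, and not how animals vary. No strain had a replicate array on the same diet, so a diet effect that differs by strain cannot be told from pool noise. In such bulk tissue fewer cells of a type and less RNA per cell cannot be told apart. The 39 strains with both diets (37 BXD lines and the parents) gave the 78 arrays tested here. Values are scores, scaled so that the probe sets of every array average 8 with an SD of 2. Their log base is unknown, so differences are in score units and no fold change is given.

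The arrays carried liver transcripts, with the mean of 12 hepatocyte markers between 14.27 and 14.61 on high fat and between 14.28 and 14.68 on chow. Pancreatic acinar transcripts stood out on the BXD63 high-fat array (mean of 19 markers 9.03, against a high-fat median of 7.13) and on the DBA/2J chow array (8.53, against a chow median of 7.20). Without those 2 strains 11 subunit genes rose and 7 fell on high fat, against 11 and 8 with them. The BXD61 chow array stood apart in other ways that are given with the strain results. On high fat 9 of 10 markers of Kupffer cells, the resident macrophages, rose, and 0 of 12 hepatocyte markers rose while 5 fell; their part in the subunit differences was not tested.

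All 38 members had a mean score above the negative-control median of 6.69, and 37 were above the negative controls' 90th percentile of 8.75. The exception was Ndufa4l2, with a mean of 7.36 over all arrays, and Ndufb2 (8.77) and Ndufb3 (8.81) lay just above that percentile. Levels of different genes come from different probes and are not compared with each other. Within a gene the levels were narrow, with standard deviations over all arrays between 0.0923 and 0.258 score units.

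**Figure D1:**
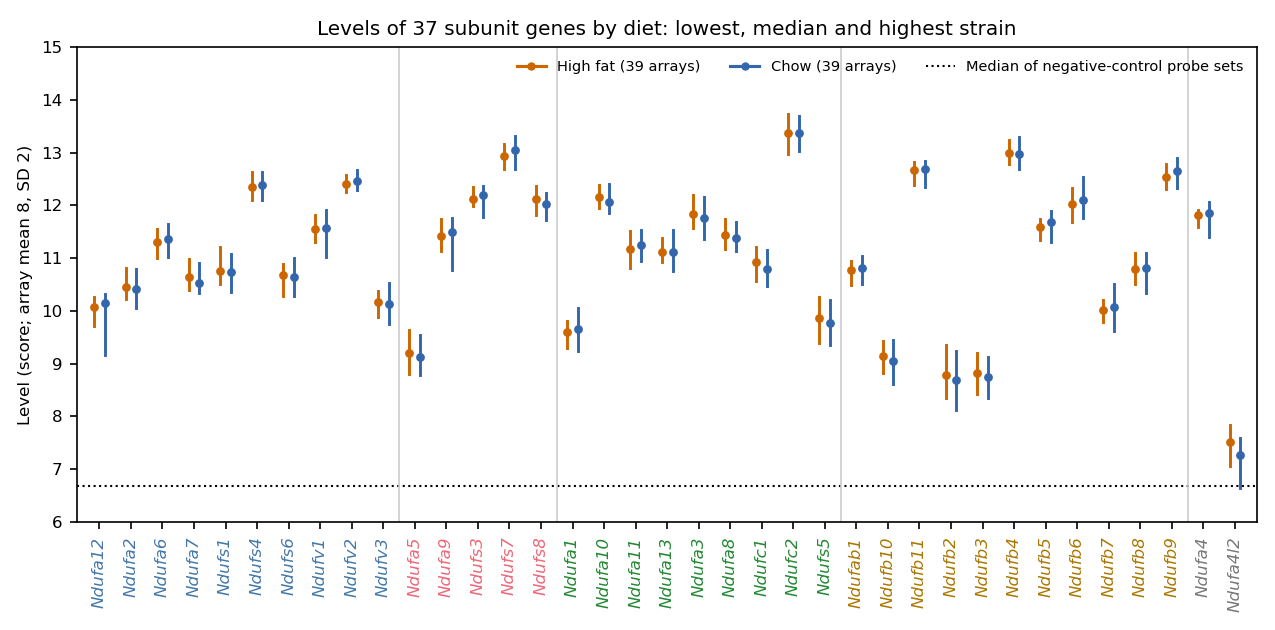
Scores of 37 of the 38 genes (vertical axis, score units; array mean 8, SD 2) in 39 high-fat (orange) and 39 chow (blue) arrays; lines run from the lowest to the highest strain and dots are medians. Genes are grouped from left to right as N module, Q module, proximal membrane arm, distal membrane arm, and Ndufa4 with its paralog. The ranges of the diets overlapped for every gene drawn, and Ndufa4l2 lay closest to the dotted negative-control median of 6.69.

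The sequences below are start regions of Ndufa9 and Ndufc2, which head the strain result, of Ndufa3 and Ndufc1, which were higher on high fat, and of Ndufa11, which was lower on it and is shown for its NRF1 letters. Each runs from 250 bases before to 50 bases after the annotated transcription start, from RefSeq on build GRCm38.p6. Capitals mark a match, on either strand, to GCGC, any 1 base and TGCGC in a row (nuclear respiratory factor NRF1), CCGGAAG (the ETS factor GABP), AAGGTCA (the core element of the estrogen-related receptors), AAGATGG (YY1) or GGGCGG (SP1). Ndufa9 lies at chr6:126849095-126849394 on the minus strand, Ndufc2 at chr7:97399753-97400052 on the plus strand, Ndufa3 at chr7:3617123-3617422 on the plus strand, Ndufc1 at chr3:51408906-51409205 on the minus strand and Ndufa11 at chr17:56717512-56717811 on the plus strand.
Ndufa9: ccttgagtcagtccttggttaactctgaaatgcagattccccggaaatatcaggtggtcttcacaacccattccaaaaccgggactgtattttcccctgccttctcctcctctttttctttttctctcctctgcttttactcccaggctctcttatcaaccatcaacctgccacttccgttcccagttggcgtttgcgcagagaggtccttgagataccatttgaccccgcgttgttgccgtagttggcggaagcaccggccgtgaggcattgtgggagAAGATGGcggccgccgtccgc
Ndufc2: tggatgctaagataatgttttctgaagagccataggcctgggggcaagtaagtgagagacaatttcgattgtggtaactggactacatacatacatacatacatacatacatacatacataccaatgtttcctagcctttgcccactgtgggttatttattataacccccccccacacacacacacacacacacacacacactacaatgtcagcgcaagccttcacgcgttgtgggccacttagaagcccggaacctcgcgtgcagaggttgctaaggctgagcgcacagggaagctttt
Ndufa3: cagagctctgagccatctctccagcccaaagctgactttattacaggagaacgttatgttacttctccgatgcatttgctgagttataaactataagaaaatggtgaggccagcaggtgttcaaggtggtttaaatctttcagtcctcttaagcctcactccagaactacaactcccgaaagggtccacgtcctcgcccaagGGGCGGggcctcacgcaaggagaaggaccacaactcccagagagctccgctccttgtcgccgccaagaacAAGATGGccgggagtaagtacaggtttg
Ndufc1: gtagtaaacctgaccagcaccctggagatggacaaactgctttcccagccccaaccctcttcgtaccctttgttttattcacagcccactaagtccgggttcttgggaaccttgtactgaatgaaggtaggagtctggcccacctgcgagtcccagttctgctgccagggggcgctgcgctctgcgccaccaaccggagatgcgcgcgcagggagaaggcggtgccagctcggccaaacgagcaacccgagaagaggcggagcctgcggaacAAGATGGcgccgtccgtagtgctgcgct
Ndufa11: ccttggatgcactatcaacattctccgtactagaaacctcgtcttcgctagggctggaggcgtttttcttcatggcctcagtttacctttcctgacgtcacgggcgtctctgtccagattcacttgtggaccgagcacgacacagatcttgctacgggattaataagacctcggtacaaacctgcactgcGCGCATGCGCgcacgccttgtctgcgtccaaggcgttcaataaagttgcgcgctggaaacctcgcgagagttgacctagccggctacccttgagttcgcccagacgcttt

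The YY1 letters began 29 bases after the start in Ndufa9 and 22 bases after it in Ndufa3 and in Ndufc1, and the SP1 letters of Ndufa3 began at position -48, with the start counted as 0. The NRF1 letters of Ndufa11 began at position -60. None of the 5 motifs was in the Ndufc2 window, which says only that these letters are not there. RefSeq start regions were matched for 32 members, and the NRF1 letters were in 21.9% of them, against 5.19% of all 27025 genes with such a region. The YY1 letters were in 21.9% of members and 7.28% of all genes, the ETS letters in 12.5% and 9.93%, the estrogen-related receptor element in 9.38% and 5.38%, and the SP1 letters in 46.9% and 38.2%. The members with the NRF1 letters were Ndufa5, Ndufa6, Ndufa8, Ndufa11, Ndufb4, Ndufs5 and Ndufs6, of which Ndufa5 was higher and Ndufa11 lower on high fat in the test described next. A match is a description of the letters and does not show that a factor binds.

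The diet comparison asks how high-fat feeding changes these transcripts across strains. On high fat, 11 of the 38 members rose and 8 fell, while 19 did not pass (limma with strain as a block, Benjamini-Hochberg adjusted over all genes, threshold 0.05). Of all genes 27.7% rose, 26.1% fell and 53.7% changed either way, so that the members' share of 50% called lay near that of the array as a whole. The median difference, high fat minus chow, was 0.0175 score units over the members and 0.0041 over all genes. With each array centred on its own median the split was 11 higher and 4 lower. All genes moved the same way under that centring, with 6691 higher and 5105 lower, against 6020 and 5673 in the fit reported. In every alternative run, 8 of the 11 rises and 4 of the 8 falls held, while those of Ndufa2, Ndufa5, Ndufb10, Ndufa11, Ndufa12, Ndufb6 and Ndufs7 ended in at least 1. The differences were small: 4 of 38 exceeded 0.1 score units in size, and 0 of 38 exceeded 0.296, the 95th percentile of the absolute difference over 5222 negative-control probe sets, of which 16.3% passed the same test.

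**Figure D2:**
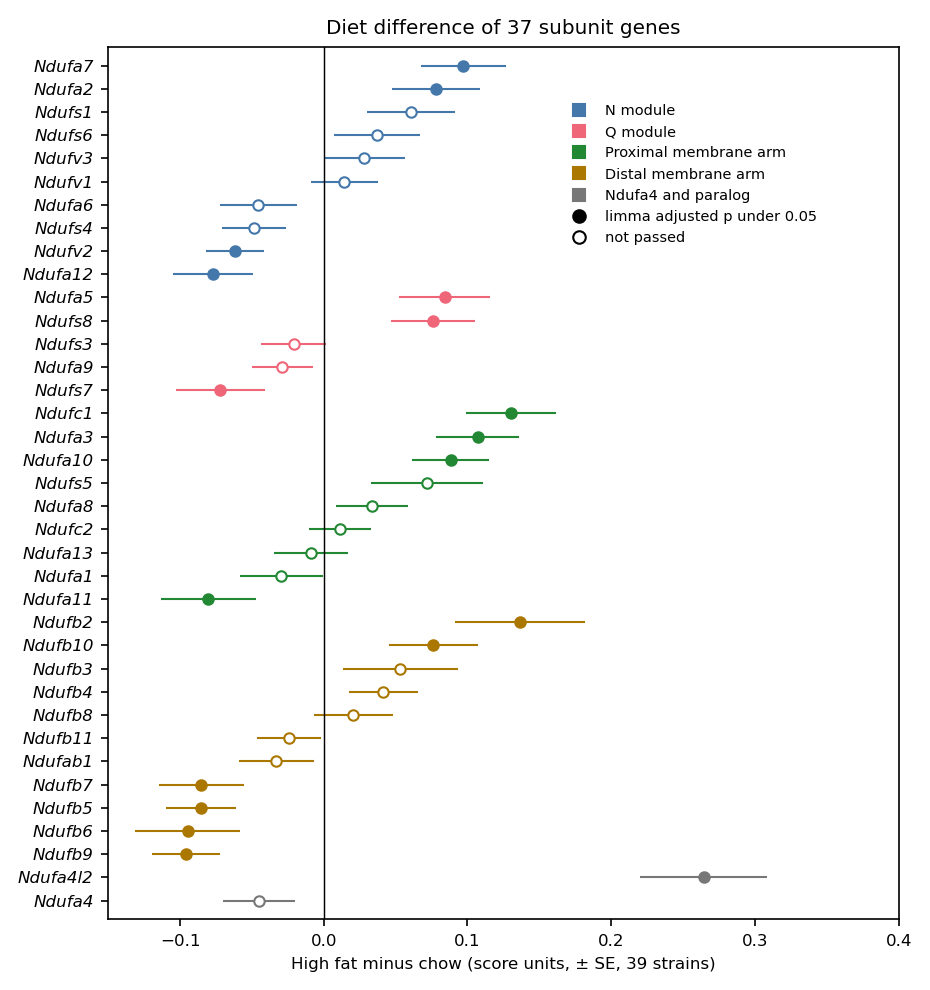
Difference between high fat and chow in score units (horizontal axis, ± SE over 39 strains) for 37 of the 38 genes, coloured by module; filled points passed the limma threshold. Every module of complex I holds genes on both sides of 0, and Ndufa4l2 has the largest difference of the members, 0.264.

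In the N module, which oxidises NADH, 2 of 10 genes rose and 2 fell (40% called, against 53.7% of all genes). Ndufa7, an accessory subunit, ranged from 10.40 to 10.98 on high fat (median 10.63), against 10.34 to 10.90 on chow (median 10.52). The ranges overlapped widely, with the high-fat values shifted slightly upward. Ndufa7 was higher in 29 of 39 strains, by 0.0971 ± 0.0297 (SE; limma adjusted p = 0.0054). Ndufa2, an accessory subunit with a thioredoxin-like fold, rose by 0.0783 ± 0.0306 (adjusted p = 0.0282), with an adjusted p between 0.0101 and 0.050003 when single strains were left out, the highest without BXD99. Ndufv2, a core subunit that holds an iron-sulfur cluster next to the flavin, ranged from 12.25 to 12.57 on high fat (median 12.41), against 12.30 to 12.66 on chow (median 12.47). It was lower in 30 strains and fell by 0.0619 ± 0.0203 (adjusted p = 0.0091). Ndufa12, an accessory subunit related to the assembly factor Ndufaf2, fell by 0.0771 ± 0.0281 (adjusted p = 0.0191). The other core subunits of the module did not pass: Ndufv1, which binds NADH and the flavin, differed by 0.0144 (adjusted p = 0.626), and Ndufs1, which carries several iron-sulfur clusters, by 0.0607 (adjusted p = 0.0903).

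In the Q module, which reduces ubiquinone, genes moved in both directions. Ndufs8, a core subunit with iron-sulfur clusters, rose by 0.0759 ± 0.0291 (adjusted p = 0.0256), and the accessory subunit Ndufa5 rose by 0.0841 ± 0.0319 (adjusted p = 0.0240). Ndufs7, the core subunit that holds the cluster nearest to ubiquinone, went the other way. It was lower in 26 of 39 strains and fell by 0.0719 ± 0.0309 (adjusted p = 0.0465), a call that ended when any of 26 single strains was left out (adjusted p between 0.0222 and 0.0849). Ndufs3, a core subunit, differed by -0.0210 (adjusted p = 0.450), and Ndufa9 by -0.0289 (adjusted p = 0.251).

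In the proximal membrane arm, 3 of 9 genes rose and 1 fell (44.4% called, against 53.7% of all genes). Ndufc1, a small membrane accessory subunit, ranged from 10.57 to 11.22 on high fat (median 10.93), against 10.46 to 11.15 on chow (median 10.79). It was higher in 31 of 39 strains, by 0.130 ± 0.031 (adjusted p = 0.000511), and by 0.0742 ± 0.0299 on its second probe set (adjusted p = 0.0338). Ndufa3, another membrane accessory subunit, ranged from 11.56 to 12.19 on high fat (median 11.84), against 11.36 to 12.16 on chow (median 11.75), and was also higher in 31 strains, by 0.107 ± 0.029 (adjusted p = 0.0018). In both genes the overlap of the diets was broad and a minority of 8 strains went the other way. Ndufa10, whose fold resembles nucleoside kinases, rose by 0.0883 ± 0.0268 and was higher in 30 strains (adjusted p = 0.0052). Ndufa11, a membrane subunit at the contact with complex III in respiratory supercomplexes, fell by 0.0803 ± 0.0329 (adjusted p = 0.0363), and the call ended when any of 11 single strains was left out (adjusted p between 0.0147 and 0.0651). Its second probe set differed by -0.0374 (adjusted p = 0.309).

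In the distal membrane arm 2 of 11 genes rose and 4 fell (54.5% called, against 53.7% of all genes). The genes that fell were Ndufb9, Ndufb6, Ndufb5 and Ndufb7, and the call of Ndufb6 ended with median centring (limma adjusted p = 0.067). Ndufb9, a subunit of the LYR protein family that binds the acyl carrier protein, ranged from 12.31 to 12.79 on high fat (median 12.55), against 12.32 to 12.90 on chow (median 12.65). It was lower in 33 of 39 strains and fell by 0.0958 ± 0.0239 (adjusted p = 0.00078). Ndufb5, a membrane accessory subunit, ranged from 11.35 to 11.73 on high fat (median 11.59), against 11.31 to 11.89 on chow (median 11.69), and fell by 0.0853 ± 0.0246 (adjusted p = 0.0033), being lower in 31 strains. The high-fat strains of Ndufb5 lacked the upper end of the chow range. Ndufb7, which faces the intermembrane space, fell by 0.0853 ± 0.0296 (adjusted p = 0.0139), and the membrane subunit Ndufb6 by 0.0948 ± 0.0366 (adjusted p = 0.0265).

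Ndufb2, a membrane accessory subunit, had the largest rise among the 36 genes of the complex, with 8.34 to 9.35 on high fat (median 8.78), against 8.13 to 9.25 on chow (median 8.69). It was higher in 25 of 39 strains, by 0.136 ± 0.045 (adjusted p = 0.0102), and its spread between strains was wide on both diets. Its level was low: the chow mean of 8.70 lay under the negative controls' 90th percentile of 8.75, and the high-fat mean of 8.84 above it. Ndufb10, an accessory subunit that faces the intermembrane space, rose by 0.0763 ± 0.0312 (adjusted p = 0.0362), but the adjusted p lay between 0.0049 and 0.0641 when single strains were left out, the highest without BXD61. Ndufab1, the mitochondrial acyl carrier protein, differed by -0.0329 (adjusted p = 0.293) on the probe set used and by 0.0388 (adjusted p = 0.184) on its other probe set, so the sign depended on the probe set although their strain means correlated at 0.963. The second probe set of Ndufb5, whose mean of 8.12 is under the negative controls' 90th percentile, fell by 0.355 ± 0.038 (adjusted p = 1.54e-10), the same direction as the probe set used but a strain correlation with it of 0.371.

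Ndufa4l2, which in other tissues is induced under low oxygen and lowers complex I activity, ranged from 7.07 to 7.84 on high fat (median 7.51), against 6.64 to 7.58 on chow (median 7.27). Most high-fat strains lay above the chow median, with overlap in between. It was higher in 32 of 39 strains, by 0.264 ± 0.044 (adjusted p = 2.52e-06), at a level near that of the negative controls. Ndufa4 differed by -0.0451 (adjusted p = 0.127).

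Beside these genes, the lists of partner genes moved in both directions as well. The share called was 50% for the assembly factors, 53.3% for the iron-sulfur genes and 40% for the regulators, against 53.7% of all genes. Of 16 measured assembly factors, which build the complex, 6 rose and 2 fell. Several of these partner genes lay under the negative controls' 90th percentile of 8.75, and the differences given here are within the 0.296 that 95% of negative-control probe sets stayed under. Ndufaf5, which modifies Ndufs7 during assembly and is listed on the array as 2310003L22Rik, was at the level of the negative controls, with means of 6.91 on high fat and 6.67 on chow (difference 0.240 ± 0.040, adjusted p = 2.34e-06). Nubpl, which is needed for iron-sulfur insertion, averaged 7.82 on high fat and 7.62 on chow and rose by 0.208 ± 0.048 (adjusted p = 0.000296), whereas Tmem186 averaged 7.89 and 8.05 and fell by 0.158 ± 0.036 (adjusted p = 0.000307). Of 15 genes of iron-sulfur cluster synthesis 6 rose and 2 fell; Hscb, a co-chaperone of cluster transfer, was near the negative controls, with means of 7.003 on high fat and 6.838 on chow (difference 0.165 ± 0.030, adjusted p = 8.69e-06). Of 15 regulators of mitochondrial gene expression 2 rose and 4 fell, among them Esrra, an estrogen-related receptor that activates respiratory genes, which fell by 0.189 ± 0.033 (adjusted p = 5.05e-06), and Gabpb1, a subunit of the ETS factor GABP, which averaged 8.42 on high fat and 8.57 on chow and fell by 0.146 ± 0.028 (adjusted p = 2.95e-05). Ppargc1a, the coactivator of mitochondrial biogenesis, differed by 0.0017 (adjusted p = 0.982). Of the 5 measured subunits encoded by mitochondrial DNA, ND1 rose by 0.0614 ± 0.0191 (adjusted p = 0.0062) and ND6 by 0.220 ± 0.064 (adjusted p = 0.0035), and 3 did not pass.

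The diet pattern of complex I was set beside those of the other respiratory complexes and the mitochondrial ribosome. The median difference of the complex I genes was 0.0175 score units. It was 0.00069 for 43 genes picked by name for complexes III, IV and ATP synthase, of which 12 rose and 11 fell. Their symbols begin with Uqcr, Cox4 to Cox8 or Atp5, which takes in Cox4nb and Atp5s and misses Cyc1 of complex III. It is a list of names and not an exact list of subunits. Of 8 genes of complex II and its assembly, 4 rose and 1 fell (median difference 0.0569). Of 74 mitochondrial ribosomal protein genes, 32 rose and 11 fell (median difference 0.0594). The share called was 53.5% for the genes named for complexes III, IV and ATP synthase, 62.5% for complex II and 58.1% for the ribosomal proteins. Of all genes 53.7% were called. Differences between these lists were not tested.

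The strain comparison asks how much each subunit transcript differs between the inbred lines over both diets. Of the 38 members, 11 differed between strains (limma moderated F-test over the strain terms, adjusted p threshold 0.05), which is 28.9%, against 22.3% of all genes. The leading genes were Ndufa9 and Ndufc2, and others were Ndufb8, Ndufv1, Ndufa3, Ndufa12, Ndufa2, Ndufb2, Ndufb9 and Ndufs4. The number called was 7 without BXD49 and 7 without C57BL/6J, and it was 6 among the BXD strains alone. The calls of Ndufa9, Ndufc2, Ndufb8, Ndufv1 and Ndufa3 held in every alternative run.

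**Figure D3:**
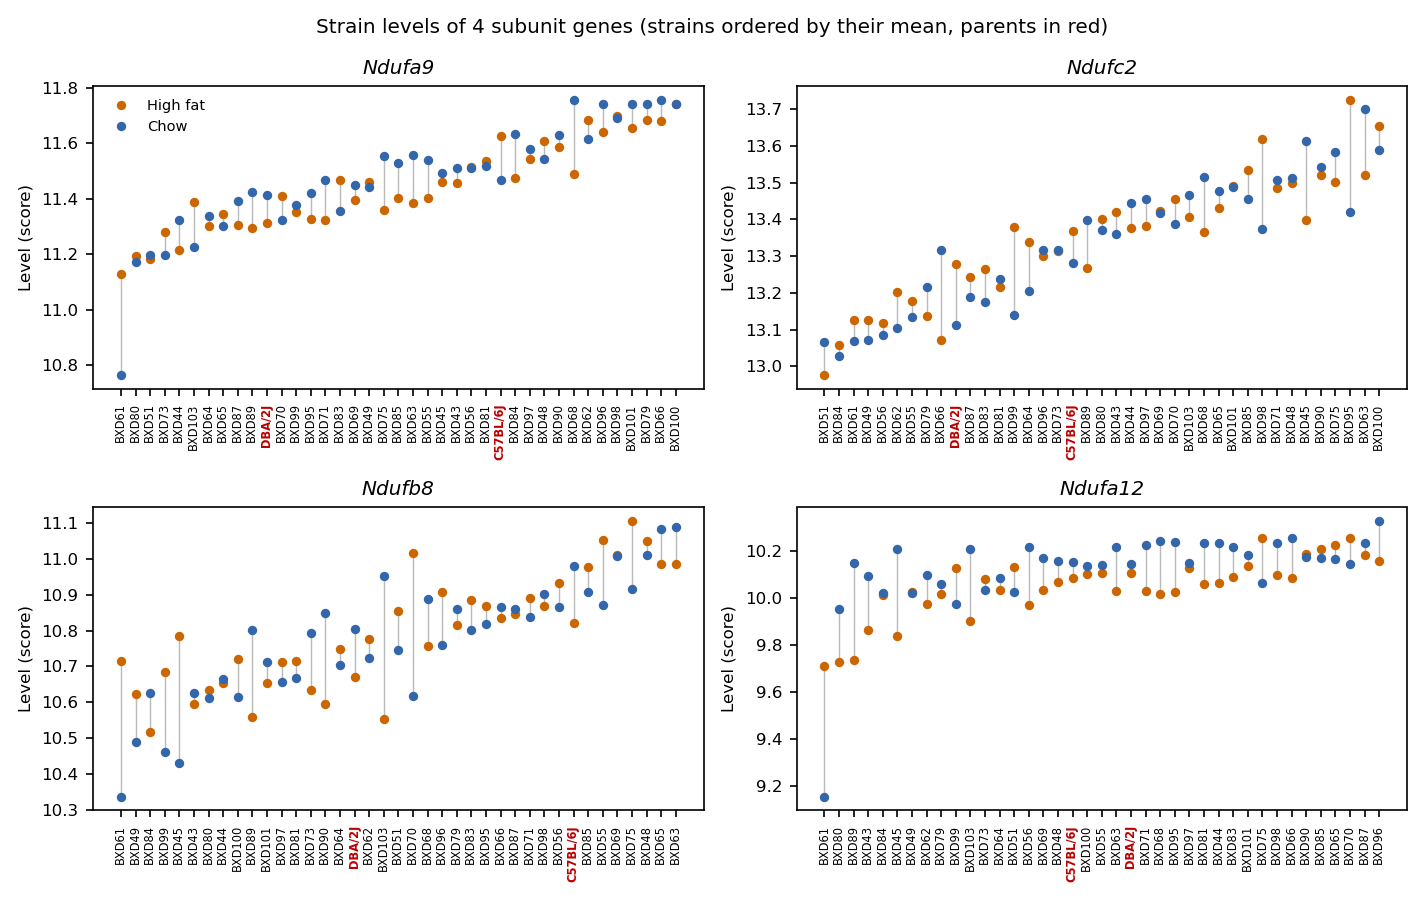
Scores (vertical axes, score units) of Ndufa9, Ndufc2, Ndufb8 and Ndufa12 in 39 strains, ordered along the horizontal axis by their mean over both diets; orange is high fat, blue is chow, and parents are in red. In Ndufa9 and Ndufc2 the order is shared by the diets (r = 0.820 and 0.779), while the order of Ndufa12 is set apart by BXD61, at 9.16 on chow.

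Ndufa9, an accessory subunit with a Rossmann fold at the junction of the arms, ranged over strains from 11.13 in BXD61 to 11.74 in BXD100 on high fat (median 11.41) and from 10.77 in BXD61 to 11.76 in BXD66 on chow (median 11.49). Strain accounted for 79.8% of its variance (adjusted p = 1.45e-07), against a median of 19.6% over all genes. The strains kept their order: high-fat and chow levels correlated over 39 strains with r = 0.820 (Spearman's rho 0.817), and r was 0.803 without BXD61 and BXD80. These points share the strain and not the array. C57BL/6J had 11.63 on high fat and 11.47 on chow, and DBA/2J 11.31 and 11.41. Strain means of 12 BXD lines lay above both parents and those of 10 lay below both.

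Ndufc2, a membrane accessory subunit, ranged from 12.98 in BXD51 to 13.73 in BXD95 on high fat (median 13.38) and from 13.03 in BXD84 to 13.70 in BXD63 on chow (median 13.37). Strain accounted for 77.8% of its variance (adjusted p = 6.19e-07), and the diets correlated with r = 0.779 (rho 0.810; 0.759 without BXD63 and BXD84). The values formed a continuous range without a clear step. The means of both parents lay below the strain median of 13.39, with C57BL/6J at 13.37 on high fat and 13.28 on chow and DBA/2J at 13.28 and 13.11, and 21 BXD lines lay above both.

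The genes whose strain means followed Ndufc2 most closely were on its own chromosome. Over 39 strain means of both diets, Aqp11 (a water channel) correlated with r = 0.821, 1810020D17Rik with 0.780, Clns1a with 0.763 and Slco2b1 (an organic anion transporter) with 0.762, and Pold3 (a DNA polymerase subunit) with -0.752. Between Ndufc2 and these genes RefSeq places 12, 5, 11, 71 and 85 other genes. Genes that lie close together are usually inherited as a block in such lines. Without BXD51 and BXD84, the strains farthest from the median of Ndufc2, the correlation was 0.803 with Aqp11 and -0.923 with Pold3. For Ndufa9, 2 of the 5 most similar or opposite genes were on its chromosome: Clec2h (r = 0.701, 65 genes between) and C530028O21Rik (r = -0.670, 54 genes between). All these correlations share the arrays and are descriptions.

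Ndufb8, a membrane accessory subunit, ranged from 10.52 to 11.11 on high fat (median 10.79) and from 10.34 to 11.09 on chow (median 10.80), with 50.8% of its variance between strains (adjusted p = 0.0050). Ndufv1 ranged from 11.30 to 11.83 on high fat (median 11.55) and from 11.02 to 11.91 on chow (median 11.58), with 51.6% between strains (adjusted p = 0.0096, and between 0.0064 and 0.0420 when single strains were left out, the highest without BXD61). Its strain means were lowest in BXD61 and BXD49. Ndufa3 had 46.5% of its variance between strains (adjusted p = 0.0099), with strain means between 11.53 in BXD61 and 12.08 in BXD100.

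Ndufa2 and Ndufb2 were highest in C57BL/6J, with strain means of 10.76 and 9.29, and no BXD line was above both parents. When single strains were left out, the strain call of Ndufa2 (adjusted p = 0.0362) moved between 0.0194 and 0.0897 and that of Ndufb2 (adjusted p = 0.0372) between 0.0241 and 0.105, in both genes with the highest value without C57BL/6J. Of the 11 genes that differed between strains, 6, Ndufa12 among them, had their lowest strain mean in BXD61. Ndufa12 on chow was at 9.16 in BXD61, while the next lowest chow value was 9.95, in BXD80, and on high fat it was at 9.71 in BXD61 and 9.73 in BXD80. Its strain call (adjusted p = 0.0256) was lost without BXD61 (adjusted p = 0.435, and at least 0.0192 when other strains were left out), and the correlation between diets was 0.436 with all strains and -0.0168 without BXD61 and BXD80.

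BXD61 was low across the complex on chow. The mean of the 36 genes ranged from 11.06 in BXD49 to 11.25 in BXD100 on high fat (median 11.15) and from 10.86 in BXD61 to 11.34 in BXD63 on chow (median 11.15). On the BXD61 chow array 35 of 36 genes were below their chow median and 12 were at the lowest value of any strain, whereas on its high-fat array 23 were below the median. The share of all genes this low on that array was not computed, so these counts are not shown to be particular to complex I. That chow array also had the highest mean of Kupffer markers (10.88, against a chow median of 9.78), of blood markers (9.27, against 8.74) and of endothelial and stellate markers (10.26, against 9.97), and the lowest mean of hepatocyte markers (14.28, against 14.56). Their part in the low subunit levels was not tested. Without BXD61, 10 members rose and 9 fell on high fat, and 11 differed between strains.

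**Figure D4:**
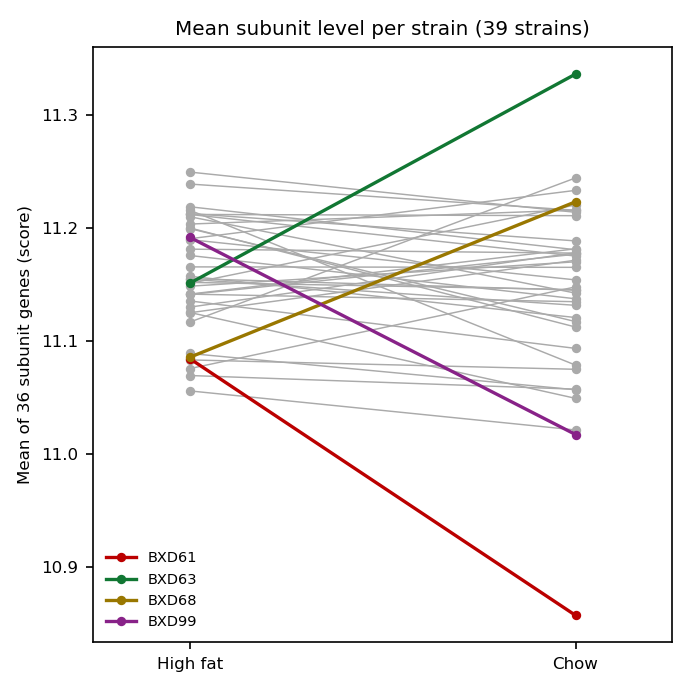
Mean score of the 36 complex I genes (vertical axis, score units) in each of 39 strains on high fat (left) and chow (right), with a line for each strain. BXD61 lies at 10.86 on chow, below all others, and BXD63 at 11.34 lies above all others on chow; the remaining strains lie closer together.

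The mean over the 36 genes was higher on high fat in 27 strains and lower in 12, by 0.0118 on average, with an SD over strains of 0.0767. The widest differences were 0.227 in BXD61 and 0.175 in BXD99 upward and -0.185 in BXD63 and -0.138 in BXD68 downward. High-fat and chow means correlated over strains with r = 0.392 (rho 0.304), and with r = 0.375 without BXD61 and BXD63. On chow the mean went against the Kupffer markers (r = -0.515), but without BXD49 and BXD61 r was -0.192. On high fat it went with 10 adipocyte-related genes (r = 0.613, and 0.603 without C57BL/6J and BXD65). On chow r with that list was 0.365, and 0.257 without BXD65 and BXD44. Cidec and Thrsp varied most of that list on high fat (SD 0.950 and 0.809). Adipoq, Lep and Ucp1 averaged 5.89, 6.46 and 6.23 there, under the negative-control median of 6.69. The other genes of the list averaged above that median, from 7.73 for Plin1 to 10.49 for Thrsp. Whether the list follows adipocyte content was not tested. These correlations rest on the same arrays for both measures.

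The subunit genes varied together only loosely across strains. Over the 630 pairs of the 36 genes, the median correlation of strain means was 0.207, with 81.3% of pairs above 0. It was 0.0056 over all gene pairs, 0.145 within the genes named for complexes III, IV and ATP synthase and 0.173 within the mitochondrial ribosomal proteins. Without BXD61 the median over the 630 pairs was 0.158. For the difference high fat minus chow within strains, the median over the same pairs was 0.209, with 78.7% above 0. The correlation of strain means is thus no larger than that of these differences. Whether it reflects strain or variation shared by arrays and pools was not tested. The median was 0.114 on high fat and 0.280 on chow, and without BXD61 and BXD63 it was 0.105 on high fat and 0.169 on chow. The first principal component of the standardised strain means held 24.03% of their variance.

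**Figure D5:**
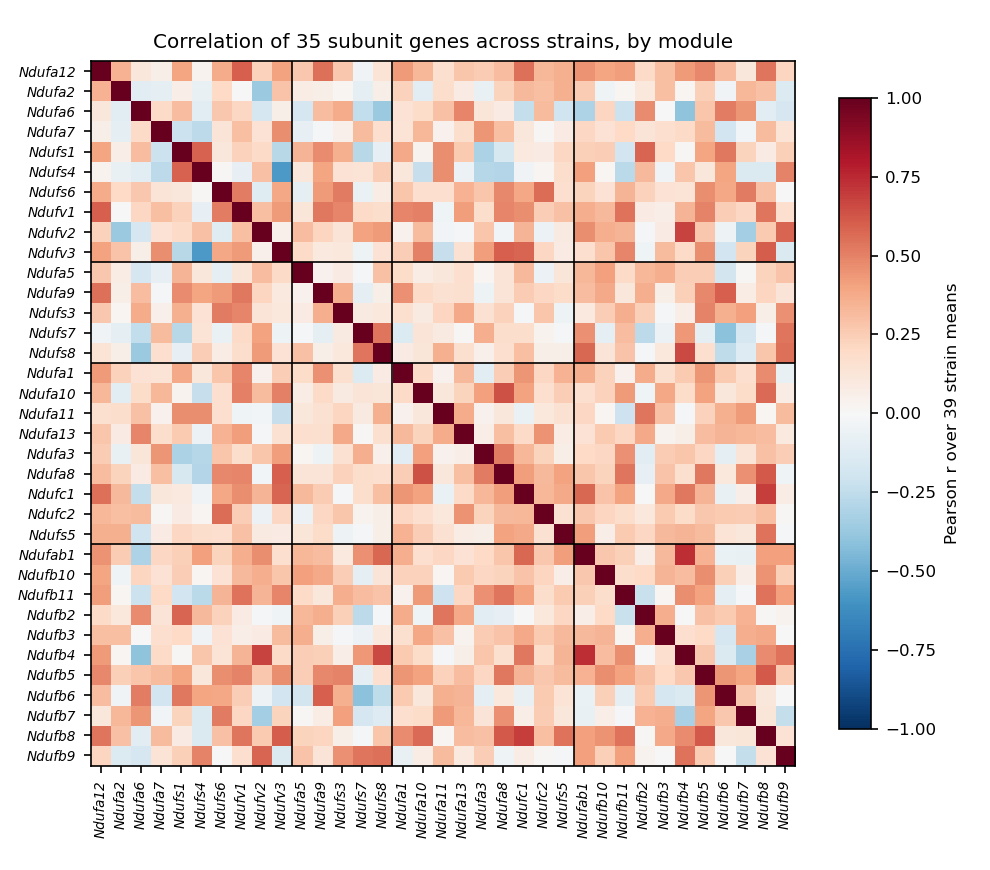
Pearson correlation of strain means over both diets (colour, from -1 in blue to 1 in red; 39 strains) between 35 of the 36 complex I genes on both axes, with lines between the N, Q, proximal and distal modules. Pale colours prevail, and the strongest pair, Ndufab1 with Ndufb4, had r = 0.742.

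Ndufb5 followed the mean of the other members most closely (r = 0.746), then Ndufa12 (0.667), Ndufv1 (0.662) and Ndufb8 (0.654). Ndufs7 (0.128), Ndufs4 (0.151), Ndufa6 (0.180) and Ndufa2 (0.187) followed it least. This ranking includes BXD61, in which Ndufa12, Ndufv1 and Ndufb8 had their lowest strain means, and it was not recomputed without that strain. Ndufb5 itself did not pass the strain test (limma moderated F-test adjusted p = 0.465), and its high-fat and chow levels correlated with r = 0.133. The closest pair was Ndufab1 with Ndufb4, both in the distal membrane arm (r = 0.742, and 0.680 without BXD61 and BXD64). Each of these genes has a second probe set whose strain means followed the one used closely (r = 0.963 for Ndufab1 and 0.980 for Ndufb4), as has Ndufs3 (0.960). Which genomic copies such paired probe sets read was not tested, so values of these genes are uncertain. The most opposed pair was Ndufs4 with Ndufv3, both of the N module (r = -0.572, and -0.591 without BXD56 and BXD96). Within modules the median correlation was 0.148 for the N module, 0.0834 for the Q module, 0.235 for the proximal and 0.251 for the distal membrane arm, all with BXD61 included.

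Outside the family, the 5 genes whose strain means were most like the members' mean were 1110020P15Rik (r = 0.769), Cox7a2 (a complex IV subunit, 0.715), Cyc1 (cytochrome c1 of complex III, 0.714), 1190003J15Rik (0.703) and Gfm1 (a mitochondrial translation elongation factor, 0.675). The genes most opposed to it were Icam1 (an adhesion molecule, -0.708), Adrbk2 (-0.706), AI504432 (-0.676), Sirpa (a myeloid receptor, -0.668) and Tgfbi (-0.665). Neither list was recomputed without BXD61. Ndufv1 taken alone was most opposed to the myeloid and leukocyte genes Lyz2 (r = -0.744, and -0.527 without BXD49 and BXD61), Lilrb3 (-0.722) and Ptprc (-0.709).

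The parents were compared as C57BL/6J minus DBA/2J, with 2 arrays of each, which are also part of the strain comparison. The DBA/2J chow array is the one with raised pancreatic acinar transcripts (8.53, against a chow median of 7.20). Of the 38 members, 0 passed the limma test after adjustment, against 2.39% of all genes. At an unadjusted p under 0.05 there were 4 members, or of all genes 13.2%. Ndufb10 had 9.17 on high fat and 9.31 on chow in C57BL/6J, against 8.87 and 8.82 in DBA/2J, a difference of 0.396 ± 0.138 (limma adjusted p = 0.140). Ndufb2 had 9.35 and 9.23 in C57BL/6J, against 9.02 and 8.60 in DBA/2J (difference 0.480 ± 0.200, adjusted p = 0.263). Ndufb3 differed by 0.399 (adjusted p = 0.305), also higher in both C57BL/6J arrays, and Ndufs3 by -0.206 (adjusted p = 0.370), with both C57BL/6J arrays lower. With arrays weighted by quality, Ndufb10 passed (limma adjusted p = 0.0292). Ndufa9 differed by 0.184 ± 0.094 between the parents (adjusted p = 0.392), although strain means among the BXD lines extended beyond both.

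The spread between strains was compared between the diets. Of 38 members 0 differed in spread (limma on absolute deviations from the diet median), against 0.00919% of all genes. At an unadjusted p under 0.05 there was 1 member, Ndufs7, or of all genes 5.27%. Its SD over strains was 0.120 on high fat and 0.168 on chow (adjusted p = 0.880), and that of Ndufb7 was 0.115 on high fat and 0.166 on chow (adjusted p = 0.952). The SD was smaller on high fat for 30 of 38 members, and 64.8% of all genes had the smaller SD on that diet.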

How the data were processed

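The deposited values are scores, standardised before the authors deposited them so that the 35556 probe sets of every array average 8 with an SD of 2. Affymetrix Expression Console was used, per the submitters' processing notes; its version and its summarisation method were not given in the sources used here. There is no counting depth, and precision is limited by how many arrays there are. The design had assumed log2 values, and the same tests were run on the scores.

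Probe sets with 1 symbol were reduced to 21765 genes by the highest mean. The 78 arrays of strains with both diets were fitted with limma 3.58.1 in R 4.3.3 (lmFit, eBayes; diet and strain terms), with Benjamini-Hochberg adjustment over all genes and a threshold of 0.05. The pairing comes from the strain names, and paired arrays deviated together (median r 0.338, above 0.1 in 37 of 39 strains). The strain share is the strain variance component over its sum with the residual. Spread was tested on paired differences of absolute deviations. The test was also run on simulated data, whose results are not reported here. Its noise was drawn independently for each gene, so that run does not cover variation shared by the genes of an array. Tables were made with pandas 2.3.3 in Python 3.11.15.

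Named members were the 8 largest diet differences each way among those that passed, the 8 smallest strain p, the 4 smallest parental p, the 2 smallest spread p, the core subunits, Ndufa4, Ndufa4l2 and genes with disagreeing probe sets, and of other lists the smallest diet p. The 5 genes most like the members' mean were named by Pearson r. Other genes (Ppargc1a, Ndufs4, the genes most opposed to the members and those most like a single member) and the strain BXD61 were singled out after their values were seen. The members and lists were chosen with earlier results of these data known. Values of some single genes that the rule would name are not reported here. The 3 strains with 1 diet were used only in an alternative fit.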

Additional observations from a re-analysis of the deposited data

How the results depend on the processing

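The alternatives were median centring and quantile normalization of arrays, the probe set of highest variance, a filter on dim genes, array weights, trended and robust moderation, no strain block, and leaving out strains. The count of subunit genes lower on high fat, 8 in the fit reported, was 4 with median centring, and 5 without the strain block on the 78 paired arrays and on all 81. The count higher, 11, was 8 with quantile normalization and 8 without the block, and 12 at most. Of all 21765 genes, 5673 were lower in the fit reported, 5105 with median centring, and 5088 and 5115 without the block. Higher were 6020 in the fit reported, 6002 with quantile normalization, and 5289 and 5288 without the block. Leaving out each strain in turn gave 10 to 12 higher and 6 to 9 lower. The count of genes that differ between strains, 11, was 6 among the BXD strains alone and 7 to 12 when each strain was left out, with 7 without BXD49 and 7 without C57BL/6J. Between the parents, 1 gene passed with array weights and 0 in the other settings, and leaving out each parental array gave 0. For spread all settings gave 0. Diet differences of single genes were recomputed for 23 members: those that passed, the core subunits and Ndufa4. None of these reversed. The other members were not recomputed, among them Ndufa13, whose difference was nearest 0 (-0.0087). Ndufab1, whose probe sets differed in sign (-0.0329 and 0.0388), and genes outside the family were not recomputed either. The causes were not tested. Signal limits Ndufa4l2, Ndufaf5, Hscb, Nubpl, Tmem186, Gabpb1 and the second Ndufb5 probe set, which lie under the negative controls' 90th percentile. It also limits Ndufb2, whose chow mean of 8.70 lies under that percentile. Pooling leaves the spread between animals unmeasured.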
